A study of Mus musculus with 64 samples.

Results

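The interferon-gamma inducible GTPases examined here are 10 genes, Gbp2, Gbp3, Gbp4, Gbp5, Gbp6, Gbp7, Igtp, Iigp1, Irgm1 and Irgm2, chosen by name as guanylate-binding proteins (GBPs) and immunity-related GTPases (IRGs) among the 55385 genes of the count tables. All 10 were measured and all 10 passed the filter on low counts, so none was left out. In these PyMT mammary tumors their mean levels were highest in the homozygous control mouse and intermediate in the heterozygous KO mouse. The homozygous KO and heterozygous control mice were lowest. Relative to its control, the heterozygous KO mouse thus had higher values (5 of 10 past the test, where 2.72% of all genes were called higher). The homozygous KO mouse had lower values than its control (10 of 10, where 7.7% of all genes were called lower). Each genotype was 1 mouse. The heterozygous calls did not last without any 1 of the 4 tumors compared, where calls over all genes also fell steeply. All 10 genes were also higher in the homozygous than in the heterozygous control, where 6.17% of all genes were called higher. The heterozygous KO exceeded the homozygous KO past the test in 4 of 10, where 5.31% of all genes were called higher. That count fell when any 1 tumor was left out, and the tumors of these mice overlapped in Igtp, Irgm1 and Irgm2.

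The study disrupted Abi1, which encodes an adaptor of the actin-regulating WAVE complex, in tumors driven by the polyoma middle T antigen (PyMT), and asked which transcripts change with the loss of 1 or both alleles. Total RNA of 8 primary tumors was sequenced, with 2 tumors from each of 4 mice. All 4 mice were PyMT-positive and carried floxed Abi1, on 1 allele (fl/wt) or on both (fl/fl), and Cre, where present, was driven by the MMTV promoter, which acts in mammary epithelium. G144, an fl/wt animal without Cre (Cre−), gave tumors 6 and 8 and served as heterozygous control, and its counterpart with Cre (Cre+), the heterozygous KO G164, gave tumors 3 and 6. Among fl/fl animals, G184 lacked Cre and gave tumors 6 and 9 as the homozygous control, and G174 carried Cre and gave tumors 1 and 6 as the homozygous KO. The paper describes this Cre as mammary-specific, and whether Abi1 was also lost in stroma, vessels or immune cells was not tested. Each genotype was 1 mouse, so the genotype cannot be told apart from the animal, from its strain background (the Cre line was of mixed strain) or from its age, and the p-values measure only the spread between tumors of 1 mouse. By the study's histology records G164 and G184 were the older mice and G144 and G174 the younger ones.

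GBPs and IRGs are dynamin-like GTPases of cell-autonomous immunity that most cell types make little of at rest and a great deal of after interferon-gamma. The cytokine comes mainly from T cells and natural killer (NK) cells, binds the receptor chains Ifngr1 and Ifngr2, and acts through the kinases Jak1 and Jak2 on genes with GAS elements in their promoters, among them Irf1, whose protein binds ISRE elements. GBPs coat pathogen vacuoles and cytosolic bacteria and promote inflammasome activity, and IRGs disrupt vacuoles, with the Irgm proteins keeping the effector IRGs from acting on the cell's own membranes. Type I interferons share the ISRE with this pathway, and several GBPs and IRGs respond to both.

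Each tumor had between 50346075 and 69264893 counts in genes, and levels below are CPM, the counts of a gene on its own strand per 1000000 counts of the TMM-scaled library. The targeted gene followed its labels. Abi1 stood at 111 and 130 CPM in the tumors of G144, at 63.1 and 66.7 in G164, at 114 and 122 in G184 and at 8.93 and 6.47 in G174. The epithelial markers Krt8, Krt18, Krt19, Epcam and Cdh1 summed to between 3249 and 3939 CPM in every tumor. Markers of skeletal muscle (Ckm, Acta1, Myh4, Tnnt3) summed to 188 CPM in tumor 8 of G144 and 245 CPM in tumor 3 of G164, and to at most 1.36 CPM in the other tumors, so results that rest on these libraries are also given without them. In whole tumors, fewer cells of a type and less RNA per cell cannot be told apart.

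The members were chosen by name, without regard to their promoters, so the stretch of each promoter that resembles an interferon-stimulated response element (ISRE) is given here. RefSeq promoters on GRCm38.p6 were at hand for 7 of the 10 members, and the 250 bases before each start were searched on both strands for the ISRE-like core GAAANNGAAA (TTTCNNTTTC when read on the other strand) and for the GAS-like letters TTCNNNGAA, which read the same on both strands. All 7 members held the ISRE-like core, against 2.98% of the 32851 promoters of all genes. In Gbp3, which has 2 listed starts, it stood before the first only. The GAS-like letters stood before the start of 4 of the 7 (Gbp5, Gbp7, Igtp and Irgm2), against 7.02% of all promoters, and no GAS-like match overlapped an ISRE-like one. The windows below run 5′ to 3′ on the strand of the gene and end at the last base before the start at the latest, with every ISRE-like core in capitals. Starts are those of RefSeq and can differ from the gene ends of GENCODE given further on.
Gbp2 (chr3:142620579-142620638, + strand): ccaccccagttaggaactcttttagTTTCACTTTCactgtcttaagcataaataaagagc
Gbp3 (chr3:142559980-142560039, + strand): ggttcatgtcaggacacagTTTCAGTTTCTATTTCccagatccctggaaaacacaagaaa
Gbp5 (chr3:142496744-142496803, + strand): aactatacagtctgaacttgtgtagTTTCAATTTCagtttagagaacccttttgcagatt
Gbp7 (chr3:142530258-142530317, + strand): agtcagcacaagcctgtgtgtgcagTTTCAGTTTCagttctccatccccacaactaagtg
Igtp (chr11:58199497-58199555, + strand): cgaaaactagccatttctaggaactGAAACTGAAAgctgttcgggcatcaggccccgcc
Irgm1 (chr11:48871421-48871469, - strand): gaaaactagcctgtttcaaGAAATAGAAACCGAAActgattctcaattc
Irgm2 (chr11:58214888-58214947, + strand): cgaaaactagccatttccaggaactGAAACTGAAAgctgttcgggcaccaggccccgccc
The first base of the core nearest the start lay 24 bases before the start in Irgm1, 34 in Igtp, 39 in Gbp3, 53 in Gbp7, 59 in Gbp2, 64 in Irgm2 and 165 in Gbp5. In Gbp3 and Irgm1 a pair of cores overlapped, which gives the longer capital stretch. The neighbours Igtp and Irgm2 carried nearly the same sequence here, with 98 of 110 bases identical when aligned at the core without gaps, and in both a GAS-like match lay just upstream of it (45 bases before the start in Igtp and 75 in Irgm2). A match describes these letters and not binding.

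Among the GBPs, Gbp2 (ENSMUSG00000028270, chr3:142620602-142638008 on GRCm38, by GENCODE M21), which acts on vacuoles and on cytosolic bacteria, stood at 44.7 and 53.7 CPM in G144 (tumors 6 and 8), 111 and 77.9 in G164 (tumors 3 and 6), 963 and 682 in G184 (tumors 6 and 9), and 58.5 and 60.1 in G174 (tumors 1 and 6). Its neighbour Gbp3 (chr3:142560026-142573209) stood at 28.0 and 48.8 CPM in G144, 121 and 93.9 in G164, 337 and 365 in G184, and 38.1 and 51.8 in G174. Gbp7 (chr3:142530342-142550149), from the same cluster, stood at 34.7 and 42.0 CPM in G144, 92.9 and 67.3 in G164, 272 and 223 in G184, and 46.0 and 47.1 in G174. In all 3 genes the tumors of G184 lay far above the rest and those of G164 lay above those of G144 and G174, without overlap.

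Gbp4, Gbp5 and Gbp6 were the scarce members. Gbp5 (chr3:142493978-142522344), a GBP that promotes Nlrp3 inflammasome activity, stood at 1.57 and 2.53 CPM in G144, 11.5 and 7.41 in G164, 104 and 85.4 in G184, and 1.40 and 2.14 in G174. Gbp4 (chr5:105115767-105139586) stood at 4.01 and 4.57 CPM in G144, 23.4 and 13.6 in G164, 239 and 177 in G184, and 7.53 and 4.97 in G174. Gbp6 (chr5:105270702-105293698) stood at 2.25 and 3.85 CPM in G144, 14.3 and 7.11 in G164, 73.9 and 65.3 in G184, and 4.66 and 3.46 in G174. Tumors of G144 and G174 overlapped in Gbp5 and Gbp6 and lay close in Gbp4, and Gbp5 was the only member with a lower mean in G174 than in G144. Gbp6 shares 1726 of its 5954 exon bases with the annotated gene Gm43302 on its strand, Gbp7 shares 637 of 5614 with Gm43802, and Gbp4 shares 61 with Gbp8 or Gbp9, so reads that lie in the shared bases were not counted for these genes.

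Among the IRGs, Igtp (chr11:58199556-58207591), which encodes Irgm3, stood at 35.5 and 40.2 CPM in G144, 110 and 59.1 in G164, 518 and 331 in G184, and 61.4 and 56.8 in G174. Irgm2 (chr11:58199618-58222782), whose annotated span begins inside Igtp and shares 162 exon bases with it, stood at 43.8 and 48.0 CPM in G144, 114 and 74.4 in G164, 418 and 325 in G184, and 89.0 and 70.8 in G174. Irgm1 (chr11:48861968-48871683), a regulatory IRG, stood at 80.4 and 81.6 CPM in G144, 164.2 and 100.3 in G164, 537 and 361 in G184, and 137 and 112 in G174. In all 3 genes G164 and G174 overlapped, since the higher tumor of G174 lay above the lower tumor of G164.

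Iigp1 (ENSMUSG00000054072, chr18:60376027-60392634), the effector IRG that Irgm proteins hold in check, stood at 54.0 and 87.7 CPM in G144, 287 and 184.1 in G164, 1402 and 1196 in G184, and 136 and 97.1 in G174. All 4 mice were separate in this gene, and no other member reached as high a level in CPM.

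**Figure D1:**
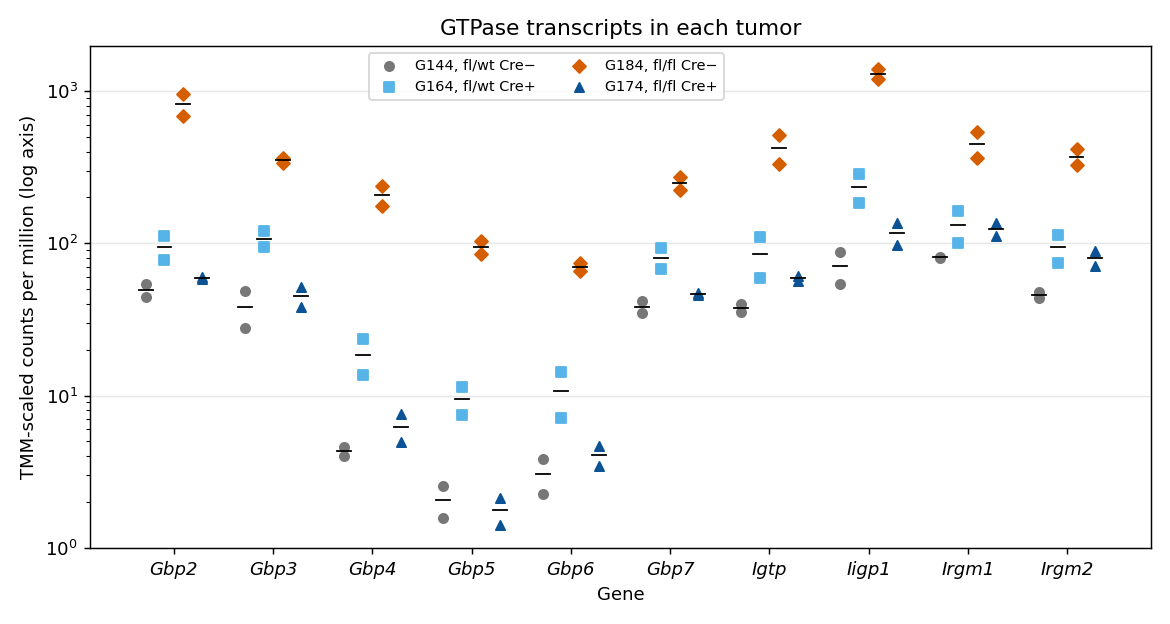
Each point is 1 tumor, with the gene on the x axis and TMM-scaled CPM on a logarithmic y axis; bars mark the mean per mouse (2 tumors each). The orange diamonds (G184) lie above every other tumor in all 10 genes, from 65.3 CPM in Gbp6 to 1402 CPM in Iigp1.

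Levels can be compared between genes only per length. Per kilobase of exon not shared with another gene of the strand, the mean CPM in G184 was 327 for Gbp2, 228 for Igtp, 223 for Iigp1, 108 for Gbp3, 105 for Irgm2, 77.3 for Irgm1, 49.7 for Gbp7, 28.0 for Gbp4, 16.5 for Gbp6 and 14.2 for Gbp5. Over the full exon length Igtp (210) lay below Iigp1 and Gbp6 (11.7) below Gbp5, so the order within these pairs depends on the length used. In G144 the unshared measure ran from 0.309 for Gbp5 to 20.3 for Igtp and 19.6 for Gbp2, and Irgm1 (13.9) and Irgm2 (13.0) then also stood above Iigp1 (12.2). The ratio of the highest to the lowest mouse ran from 5.55 in Irgm1 to 53.4 in Gbp5, with 48.5 in Gbp4 and 22.8 in Gbp6, the other scarce GBPs.

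The homozygous comparison asks what changes when both Abi1 alleles are lost, and every member fell. Expression in G174 was lower than in G184 for 10 of 10 members, by 3.62-fold in Irgm1 to 53.4-fold in Gbp5, with a median log2 fold change of −3.22 against −0.00119 over all genes. All 10 passed the quasi-likelihood test of edgeR (Benjamini-Hochberg adjusted p from 0.00088 to 0.0105), where 7.7% of the 22187 genes tested were called lower and 5.44% higher. Tumors of the mice did not overlap in any member, which was so, in this direction, for 29.9% of all genes. The GBPs with the steepest fall were Gbp5 (log2 fold change −5.74 ± 0.37, SE), Gbp4 (−5.06 ± 0.35) and Gbp6 (−4.10 ± 0.41). Gbp2 fell by 3.79 ± 0.24 and Gbp3 by 2.97 ± 0.29 on this scale, and Gbp7 least of the GBPs (−2.41 ± 0.19). Of the IRGs, Iigp1 fell most (−3.48 ± 0.33), ahead of Igtp (−2.85 ± 0.33), Irgm2 (−2.22 ± 0.24) and Irgm1 (−1.85 ± 0.28). Leaving out any tumor, or both tumors with muscle RNA, ended none of these calls.

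The heterozygous comparison asks what changes with the loss of 1 allele, and here members were higher in the KO. Fold changes of G164 over G144 were positive in all 10, from 1.63 in Irgm1 to 4.61 in Gbp5, with a median log2 fold change of 1.33 against 0.0152 over all genes. The test called 5 of 10 higher and 0 lower, where 2.72% of all genes were called higher and 1.29% lower. These were Gbp5 (log2 fold change 2.21 ± 0.33, adjusted p = 0.0278, edgeR), Gbp4 (2.11 ± 0.32, adjusted p = 0.0285), Iigp1 (1.73 ± 0.31, adjusted p = 0.0362), Gbp3 (1.49 ± 0.28, adjusted p = 0.0396) and Gbp7 (1.06 ± 0.18, adjusted p = 0.0347). The other members did not pass in edgeR, with 1.81 ± 0.38 for Gbp6 (adjusted p = 0.0509), 1.16 ± 0.31 for Igtp (0.0837), 1.03 ± 0.23 for Irgm2 (0.0555), 0.94 ± 0.22 for Gbp2 (0.0621) and 0.71 ± 0.27 for Irgm1 (0.163). Tumors of the mice did not overlap in any of the 10, as in 31.3% of all genes in this direction. The calls rested on every library of the comparison. They did not last in edgeR when any tumor of G144 or G164, or both tumors that held muscle RNA, were left out. All 10 log2 fold changes stayed above 0. Heterozygous calls over all genes also fell steeply in these fits, which leave a mouse with 1 tumor, so the loss was not limited to the members. Without either tumor of G184, which share in the estimate of the spread, 3 of 10 passed. DESeq2 called 9 of the 10 higher, and over all genes it called 1398 higher, against 604 in edgeR.

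The changes with 1 and with 2 lost alleles differed from each other in every member. The homozygous minus the heterozygous log2 fold change was negative for 10 of 10, from −2.56 ± 0.38 in Irgm1 to −7.94 ± 0.49 in Gbp5, with adjusted p from 0.00062 to 0.00601 (edgeR), where 13.1% of all genes were called lower in this test. The control mice, neither of which carries Cre, were also compared with each other. Members were higher in G184 than in G144 for 10 of 10, by 5.55-fold in Irgm1 to 48.6-fold in Gbp4 (adjusted p from 0.00097 to 0.00527), where 6.17% of all genes were called higher and 6.4% lower between these mice. The count was 8 of 10 without tumor 6 of G144, where Igtp (adjusted p = 0.0531) and Irgm1 (0.0662) did not pass in edgeR. No member overlapped between the control mice, as in 31.1% of all genes in this direction. This comparison uses the G144 tumors of the heterozygous and the G184 tumors of the homozygous comparison, so it is no independent evidence of either. The difference between the KO effects is also, by construction, the difference between the younger mice (G144 and G174) and the older mice (G164 and G184), and these cannot be told apart.

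**Figure D2:**
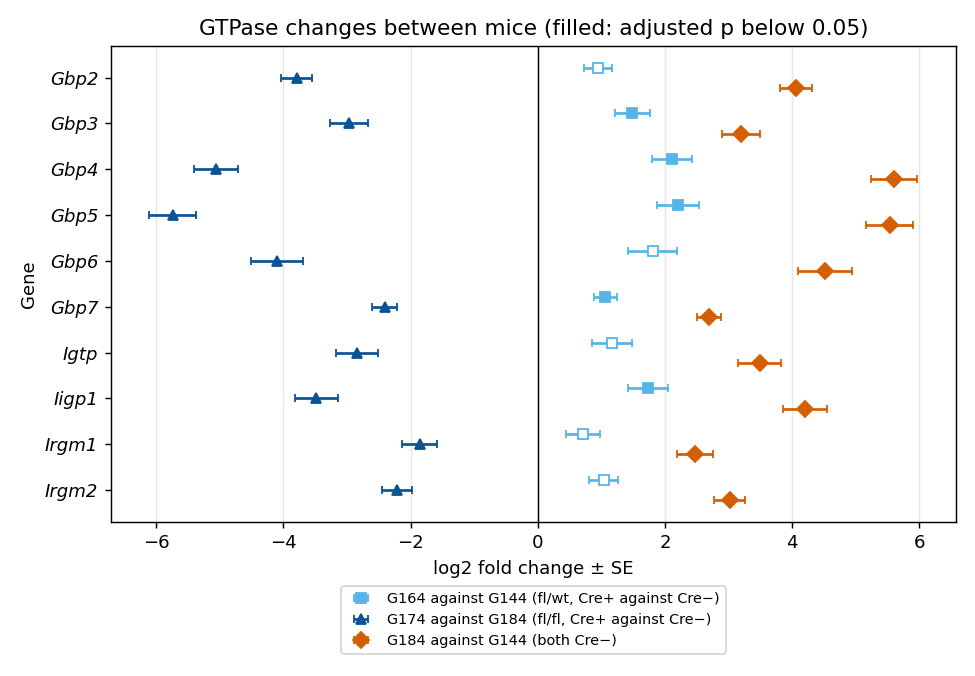
Points give log2 fold changes (x axis) of each gene (y axis) with standard errors, filled where the adjusted p was below 0.05. All homozygous changes lie left of 0, from −5.74 to −1.85, all heterozygous changes lie right of it, from 0.71 to 2.21, and the differences between the control mice run from 2.47 to 5.60.

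Neighbours in the order of the mice were compared because it was the same for 9 of 10 members, G184 above G164 above G174 above G144, with only Gbp5 placing G144 above G174. This set of comparisons was added after the order was seen. G184 exceeded G164 in 8 of 10 members past the threshold (1.63 in Gbp7 to 3.49 in Gbp4 on the log2 scale, edgeR), where 0.176% of all genes were called higher; Gbp3 (1.71 ± 0.28, adjusted p = 0.0762) and Irgm1 (1.76 ± 0.27, adjusted p = 0.0617) did not pass. That count was 0 of 10 without both tumors with muscle RNA, and 1 or 2 when tumor 6 of G164 or either tumor of G184 was left out. G164 exceeded G174 in 4 of 10 members, Gbp5 (2.41 ± 0.33), Gbp4 (1.56 ± 0.31), Gbp3 (1.26 ± 0.28) and Gbp7 (0.78 ± 0.18), where 5.31% of all genes were called higher, and this became 0 to 2 of 10 when any 1 tumor was left out and 0 without the muscle tumors. The Irgm genes hardly separated these mice, with log2 fold changes of 0.09 ± 0.27 in Irgm1 and 0.24 ± 0.23 in Irgm2, which both turned negative without tumor 3 of G164, as did that of Igtp (0.52 ± 0.31). Between G174 and G144, 0 of 10 members passed in edgeR, with 1 at an unadjusted p under 0.05 and 1 (Irgm2) called by DESeq2, where 0.0361% of all genes were called higher. The largest of these changes was 0.80 ± 0.23 in Irgm2 (adjusted p = 0.304, edgeR).

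The makeup of the group moved in part with its level. The 10 genes held 0.0324% and 0.0406% of all gene counts in the tumors of G144, 0.109% and 0.0705% in G164, 0.498% and 0.371% in G184, and 0.0569% and 0.0497% in G174. Irgm1 made up 24.4% and 19.8% of these counts in G144 and 23.6% and 22.1% in G174, where it led or nearly led the group, but 15.6% and 14.6% in G164 and 11.0% and 9.48% in G184. Irgm2 followed it, with 8.53% to 15.4% over the 8 tumors. The scarce GBPs did the reverse, and the share of Gbp2 was raised in G184 only. Gbp4 took 4.92% and 4.64% of the counts in G184 and at most 2.23% elsewhere. Gbp5 took 2.13% and 2.24% in G184 and at most 1.09% elsewhere. Gbp2 took 19.8% and 17.9% in G184 and at most 13.6% elsewhere. Its 10.6% and 11.4% in G164 lay below its 13.6% and 13.0% in G144. Igtp kept a near-constant share, between 8.63% and 11.2%. These shares depend on gene length and are read within a gene only.

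**Figure D3:**
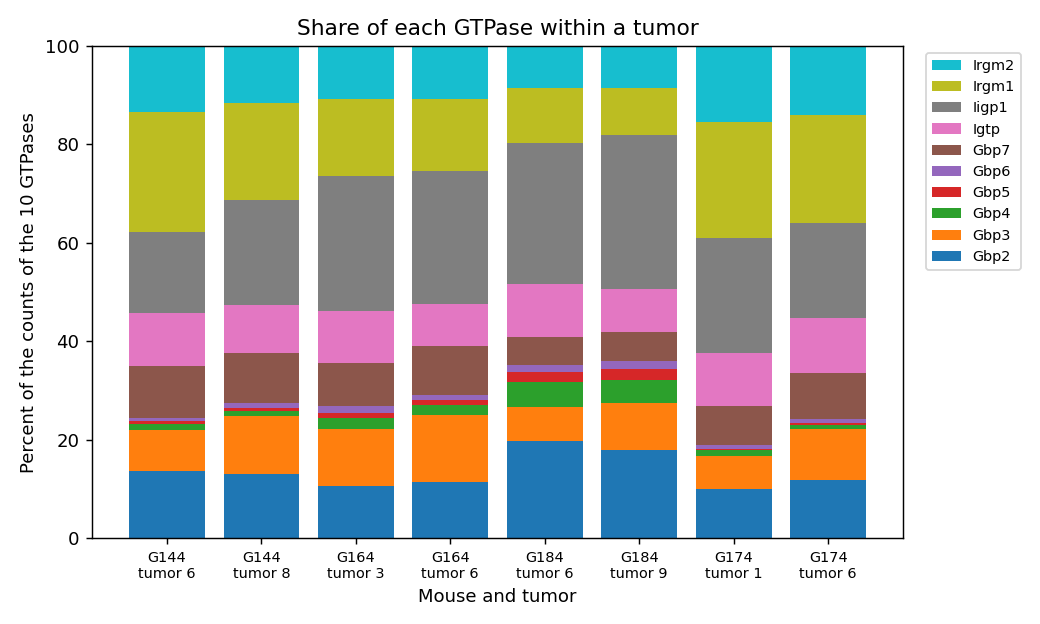
Each bar is 1 tumor, divided by the percent of the counts of the 10 GTPases that each gene held (y axis, 0 to 100). Irgm1 fills 9.48% to 11.0% of the bars of G184 and 19.8% to 24.4% of those of G144 and G174.

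The members rose and fell together over the 8 tumors. The Pearson r of log2 CPM between members ran from 0.901 (Gbp3 with Irgm1) to 0.996 (Gbp6 with Iigp1) over the 45 pairs, with a median of 0.980, as a description over 8 tumors of 4 mice that share libraries and mouse. Within this, each Irgm gene of chromosome 11 was closer to the other Irgm genes than to any other member (Igtp with Irgm2 0.994, Irgm1 with Irgm2 0.994, Igtp with Irgm1 0.992). Gbp3 and Gbp5, alike among themselves (0.989), were least like Irgm1 (0.901 and 0.911). Tumors of 1 mouse also differed, mostly in 1 direction except in G174. Tumor 8 of G144 was higher than tumor 6 in 10 of 10 members (1.01 to 1.74-fold), and tumor 3 of G164 was higher than tumor 6 in 10 of 10 (1.29 to 2.01-fold). These higher tumors are the libraries with muscle RNA, and the part of that tissue in the levels was not tested. Tumor 6 of G184 was higher than tumor 9 in 9 of 10 (all but Gbp3). In G174 tumor 1 was higher than tumor 6 in 6 of 10. Without regard to direction, the median fold between tumors of G144 was 1.21 in the members and 1.14 over 15751 genes. It was 1.55 against 1.09 in G164, 1.25 against 1.13 in G184 and 1.30 against 1.16 in G174.

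In G184 the other interferon genes did not all follow. Of 17 genes known mainly as type I interferon targets, among them Ifit2, Ifit3 and Usp18, all 17 were lower in tumor 6 of G184 than in tumor 9 (median ratio 0.67), the opposite of the GTPases, whose summed CPM was 4864 in tumor 6 and 3812 in tumor 9. In the same tumors 15 of 18 other GBP and IRG genes and 13 of 17 other interferon-gamma targets were higher in tumor 6, with median ratios of 1.27 and 1.10. In G144 and G164 the type I targets were higher in the tumor with the higher GTPases, 17 of 17 in tumor 8 of G144 and 16 of 17 in tumor 3 of G164. In G174, where the GTPases split 6 to 4, 16 of 17 were higher in tumor 1 (median ratio 1.45). With 1 tumor on each side these ratios have no test.

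**Figure D4:**
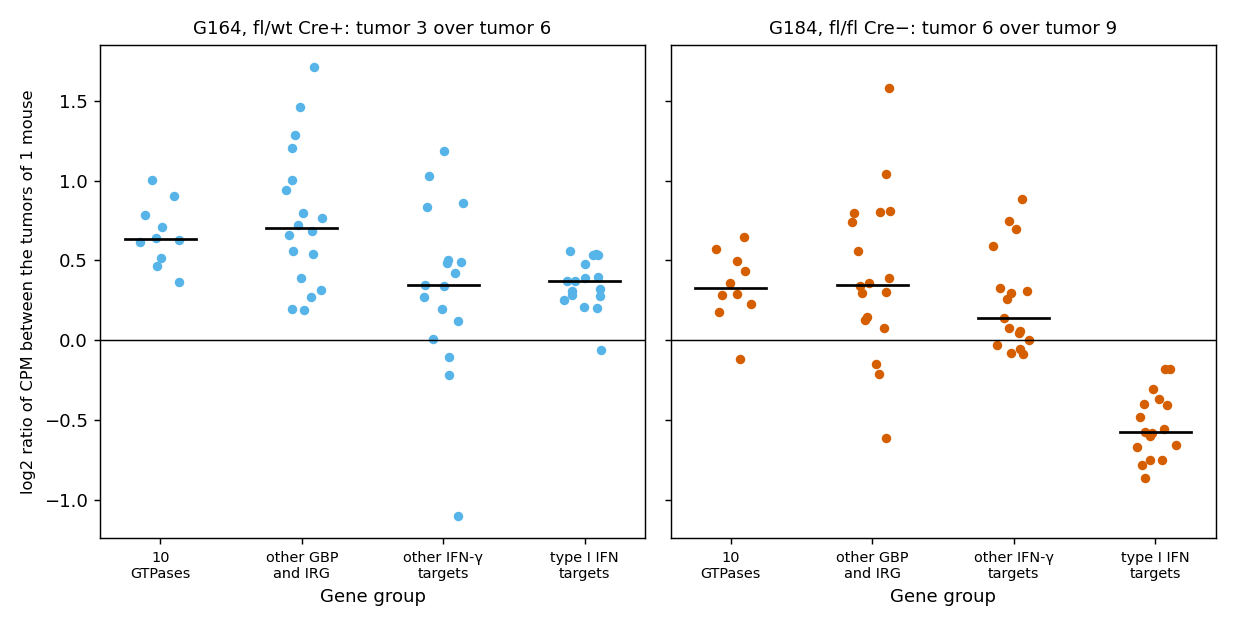
Each point is a gene, and the y axis is the log2 ratio of its CPM between the tumors of 1 mouse, for G164 (left) and G184 (right); lines are medians of the gene groups named on the x axis. In G164 all groups lie mostly above 0, and in G184 the 17 type I interferon targets all lie below 0 (median ratio 0.67) while 9 of the 10 GTPases lie above it.

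Lists of related genes were counted beside the members. Heterozygous calls in the lists below were all lost without both tumors with muscle RNA, as were nearly all such calls over all genes. That fit keeps only tumor 6 of G144 and tumor 6 of G164, so it cannot tell muscle RNA apart from the loss of tumors. Heterozygous calls were also fewer, in most lists and over all genes, when each tumor of G144 or G164 was left out in turn. The B and plasma cell markers had more such calls without tumor 3 of G164. Of 18 further GBP and IRG genes, 17 fell in the homozygous comparison and 0 rose (13 to 17 fell when single tumors were left out), 7 rose in the heterozygous one, and 17 were higher in G184 than in G144 (8 without tumor 6 of G144). The median log2 fold change was −2.77 in homozygotes and 1.73 in heterozygotes. The steepest falls were in Gm4841 (log2 fold change −6.43), Gbp11 (−6.24) and Gbp10 (−5.81). Many of these genes are near-identical copies, so the split of reads among them is uncertain. The exception, named after its values were seen, was Gbp2b, the mouse Gbp1 gene next to Gbp2. It stood at 17.8 and 21.8 CPM in G144, 46.7 and 32.1 in G164, 13.3 and 4.44 in G184, and 23.6 and 25.6 in G174, so that its lowest mouse was the one in which all 10 members were highest. Its homozygous log2 fold change was 1.47 ± 0.46 (adjusted p = 0.0781, edgeR). DESeq2 called all 18 of these genes in the homozygous comparison and between the control mice, Gbp2b among them.

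Upstream of the members, transcripts of the cytokine were scarce. Ifng, interferon-gamma itself, was read 67 times in G184 (0.536 and 0.451 CPM) and 0 times in G174, which makes it at least 21.8-fold lower there against a floor of 3 counts in the mouse, and it stood at 0.076 CPM or below in the tumors of G144 and G164. Of 6 measured genes for interferon-gamma and the cytokines that induce it, 4 fell and 1 rose in homozygotes, and 0 of 6 passed in heterozygotes by edgeR (2 at an unadjusted p under 0.05, 1 by DESeq2). The one that rose was Il12a (log2 fold change 5.65), a subunit of interleukin-12, which did not pass without tumor 1 of G174 or either tumor of G184, and Il27 fell (−3.54). Il12a stood at 0.198 and 0.124 CPM in G184 and 12.9 and 3.51 in G174.

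Receptor and signal transduction genes moved less than the GTPases. Of 10, 6 fell and 1 rose in homozygotes, and 2 rose in heterozygotes. Irf1, a transcription factor that the cytokine induces, stood at 312 and 262 CPM in G184 and between 89.8 and 106 CPM in all other tumors, so it set G184 apart without separating G164 from G144 (log2 fold change −0.06, adjusted p = 0.800, edgeR). Socs1, a feedback inhibitor, fell by 2.04 in homozygotes and Irf8 by 1.93. The one that rose was Ifngr2, a receptor chain, by 0.59. It did not pass without tumor 1 of G174, without either tumor of G184, or without both tumors with muscle RNA.

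Other targets of the cytokine moved in the same directions. Of 17 other interferon-gamma targets, 16 fell in homozygotes and 7 rose in heterozygotes, with median log2 fold changes of −1.79 and 1.17. The chemokine genes Cxcl11 (−8.17) and Cxcl9 (−5.69) and the ubiquitin-like Ubd (−4.70) fell most. Of 17 type I targets, 13 fell in homozygotes and 8 rose in heterozygotes, and between the control mice all 17 were higher in G184. Their homozygous median was −1.34, beside −3.22 for the GTPases, and Ifit3 (−1.93), Ifit2 (−1.81) and Usp18 (−1.73) fell most. Between G184 and G164, where edgeR called 0.176% of all genes higher, 0 of 17 type I targets passed (8 at an unadjusted p under 0.05, 3 by DESeq2). There 8 of the 10 GTPases passed. All 17 type I targets were still higher in G184, with a median log2 fold change of 0.63, beside 2.39 for the GTPases. The difference between the groups was not tested. Type I calls in homozygotes numbered 0 without tumor 9 of G184, 5 without tumor 6 of G174 and 4 without both tumors with muscle RNA, and those between the control mice 2 without tumor 6 of G144, 7 without tumor 9 of G184 and 1 without both tumors with muscle RNA.

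Genes of processes in which the GTPases take part moved less. Of 8 inflammasome genes, 5 fell in homozygotes and 2 rose in heterozygotes, with the largest falls in Il1b (−1.98), Aim2 (−1.79) and the pore-former Gsdmd (−1.77); 3 of 8 passed without tumor 9 of G184. Of 11 autophagy conjugation genes, 0 passed in homozygotes by edgeR (2 at an unadjusted p under 0.05), the most abundant being Sqstm1 with 0.35 ± 0.10, and 1, Atg5 (−0.44), fell in heterozygotes. Median changes of the autophagy genes were 0.13 and −0.21.

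Markers of the cells that make interferon-gamma moved with the homozygous change. The sum of 8 T cell markers (Cd3d, Cd3e, Cd3g, Cd2, Cd4, Cd8a, Cd8b1, Lck) was 12.1 and 13.8 CPM in G144, 26.9 and 33.2 in G164, 28.2 and 25.4 in G184, and 8.23 and 9.12 in G174. All 8 fell in homozygotes (4 without tumor 1 of G174 or tumor 9 of G184, 3 without tumor 6 of G184, 2 without the muscle tumors) and 3 rose in heterozygotes. These markers did not follow the GTPases between G184 and G164, with a median log2 fold change of −0.10 beside 2.39 for the GTPases. In that comparison 0 of 8 passed in edgeR, where 0.176% of all genes were called higher. Of the 8, 0 had an unadjusted p under 0.05 in edgeR and DESeq2 called 0. Of 6 markers of NK cells and cytotoxic lymphocytes, 5 fell in homozygotes (2 without tumor 9 of G184), and their sum was 22.1 and 20.6 CPM in G184 and between 4.02 and 12.1 elsewhere. No marker of either list was at 0 in every tumor. The part of these cells in the GTPase levels was not tested.

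Markers of other cell types also moved. Macrophage markers summed to 248 to 339 CPM in G144, 472 and 476 in G164, 453 and 610 in G184, and 264 and 296 in G174, with 5 of 8 lower in homozygotes (1 to 3 without either tumor of G164 or G174, or tumor 9 of G184) and 1 higher in heterozygotes. Of 5 dendritic cell markers, 4 fell in homozygotes (4 also without any 1 tumor) with a median log2 fold change of −2.36, beside −1.73 for the T cell markers, and their sum in G184 was 2.81 and 3.59 times the mean of G144. B and plasma cell markers were high in G164 alone (46.5 and 53.9 CPM, against at most 4.33 elsewhere), which is not the order of the GTPases; 2 of 6 rose in heterozygotes (median 4.94; 0 to 4 with 1 tumor left out) and 0 passed in homozygotes by edgeR (1 at an unadjusted p under 0.05, 2 by DESeq2). Of 4 neutrophil markers tested, 2 rose in heterozygotes (median 2.43), and 0 or 1 with 1 tumor left out. Of 4 adipocyte markers, 1 fell in homozygotes (median −2.53). Of 5 luminal epithelial markers, 1 rose in homozygotes, and log2 fold changes ran from −1.08 to 0.54. That call was lost when any 1 tumor other than tumor 6 of G174 was left out, and without the muscle tumors. The sum of these markers held between 0.867 and 1.05 times the mean of G144 in all 8 tumors. The summed GTPases stood at 13.1 and 10.3 times that mean in G184, the T cell markers at 2.17 and 1.96 times, and the type I targets at 3.29 and 4.69 times.

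**Figure D5:**
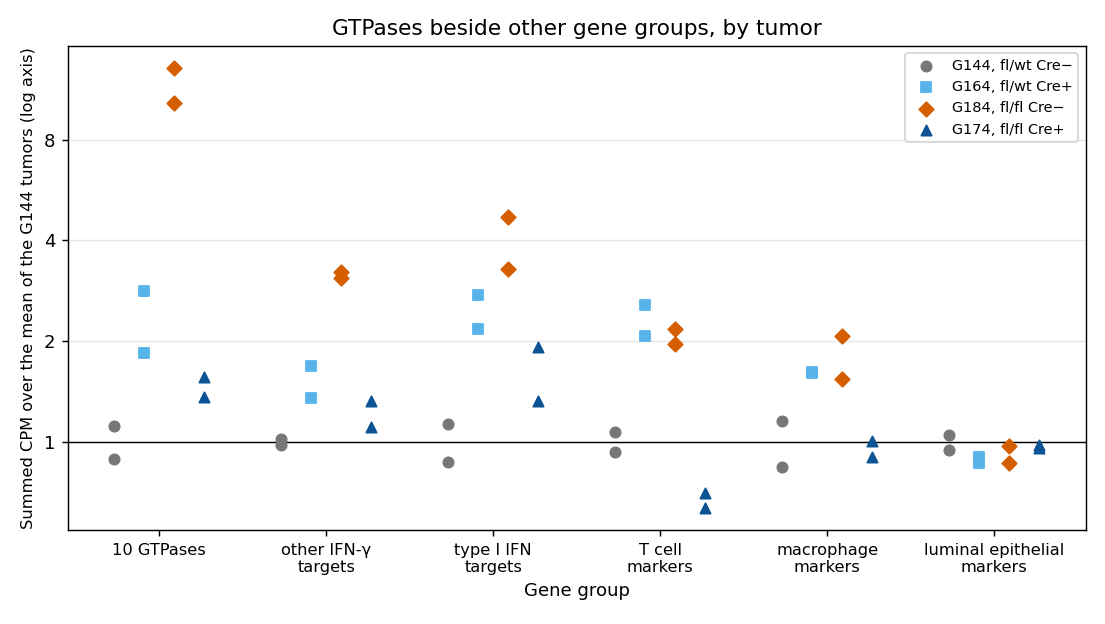
Each point is 1 tumor, and the y axis (logarithmic, base 2) is the summed CPM of a gene group divided by the mean of the 2 tumors of G144. In G184 the GTPases reach 13.1 and 10.3 while the T cell markers (2.17 and 1.96) lie level with those of G164 (2.08 and 2.56), and the luminal epithelial markers stay between 0.867 and 1.05.

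The genes most like the group over the 8 tumors were taken from 11370 protein-coding candidates with a mean of at least 5 CPM, by the Pearson r of their log2 CPM with the mean standardised level of the members. These were Gbp8 (r = 0.997), Cd274, which encodes the checkpoint ligand PD-L1 (0.992), Nmi, an interferon-induced gene (0.991), Tap2, a subunit of the peptide transporter for MHC class I (0.990), and Gbp10 (0.989). Cd274 stood at 2.62 and 2.69 CPM in G144, 8.33 and 6.54 in G164, 33.6 and 27.4 in G184, and 4.27 and 3.01 in G174. Nmi had a far smaller range, from 35.5 CPM in tumor 6 of G144 to 76.8 CPM in tumor 9 of G184, in the same order of mice. Likeness over 8 tumors of 4 mice is a description of these samples.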

How the data were processed

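The RNA came from 4 PyMT mice and 8 tumors, 2 in each mouse. Per the labels, the authors called bases with bcl2fastq, used STAR to align to GRCm38 (mm10) and count, and deposited raw counts per gene for 64 lane files, with unstranded, forward and reverse columns, and a table summed per mouse, which equals the unstranded sums at all 55381 genes it lists. For STAR, bcl2fastq and the annotation, versions are not given in the sources used. Reverse-strand counts were summed per tumor over 2 runs of 4 lanes, which were not taken as replicates, since the forward strand held 4.76% to 6.80% of stranded counts. Unmapped (4.25% to 6.45%), multimapping (10.5% to 14.2%), gene-free (28.3% to 34.9%) and ambiguous reads (1.48% to 2.09%) stayed out of library sizes and tests.

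Genes were filtered with filterByExpr (22187 of 55385 kept), scaled by TMM, and edgeR 4.0.16 (R 4.3.3) gave 1 quasi-likelihood fit to the 8 tumors, with 4 residual degrees of freedom and Benjamini-Hochberg adjustment over all genes tested (threshold 0.05). Tumors of 1 mouse varied with a common coefficient of 0.229. Standard errors are the log2 fold change divided by the root of the F statistic. Alternatives were other scalings, no filter, unstranded counts, each run alone, DESeq2 1.42.0, a fit of the compared mice only, and each tumor left out; leaving out the tumors with muscle RNA and the comparisons of neighbouring mice were added later. The fits were tested on simulated data. Places and symbols come from GENCODE M21 and promoters from RefSeq on GRCm38.p6. A pseudocount of 0.1 CPM was used for correlations.

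Named were all members, from each list up to 3 called genes with the largest homozygous change or else the most abundant, Ifng, Irf1, the 5 genes most like the members, and Abi1; others are said to be chosen after their values were seen. A gene that the rule would name is not reported here. The members and lists were chosen with earlier results of these data known.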

Additional observations from a re-analysis of the deposited data

Results flagged for a closer look

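The homozygous and heterozygous changes differed by the test of the difference itself (edgeR) in all 10 GTPases. The homozygous minus the heterozygous log2 fold change was −4.74 for Gbp2, −4.45 for Gbp3, −7.17 for Gbp4, −7.94 for Gbp5, −5.91 for Gbp6, −3.47 for Gbp7, −4.01 for Igtp, −5.22 for Iigp1, −2.56 for Irgm1 and −3.25 for Irgm2. All 10 passed under every alternative run. The same contrast separates the younger from the older mice, and these cannot be told apart.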

How the results depend on the processing

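The homozygous fall and the difference between the changes kept their direction and call in all 10 members under all alternatives run. Of 170 control values 3 no longer passed, and Irgm1 had an adjusted p of 0.0693 (edgeR) without both tumors with muscle RNA. In heterozygotes 10 members passed with no filter on low counts and 9 in DESeq2, against 5, and 0 without the tumors with muscle RNA; leaving out 1 tumor gave 0 to 5. For G184 against G164 only 1 member passed with only the mice compared and 0 without the tumors with muscle RNA, and 1 to 6 with 1 tumor left out. For G164 against G174 the counts were 7 with no filter, 7 in DESeq2, 1 with only the mice compared, 0 without the tumors with muscle RNA and 0 to 2 with 1 tumor left out; for G174 against G144 no filter and DESeq2 each gave 1 and 1 tumor left out 0. The causes were not tested.

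Reversed signs, none past the threshold, came up between neighbouring mice. With 1 tumor left out, G164 against G174 ran from −0.026 to 0.90 in Igtp, −0.33 to 0.40 in Irgm1 and −0.13 to 0.51 in Irgm2, negative without tumor 3 of G164 and, in Irgm1, without tumor 6 of G174; without the tumors with muscle RNA it was −0.0010 in Igtp, −0.31 in Irgm1 and −0.10 in Irgm2. G174 against G144 ran from −0.10 to 0.68 in Gbp3, negative without tumor 6 of G144, and from −0.52 to 0.17 in Gbp5, positive without tumor 8 of G144 or tumor 1 of G174 and 0.17 without the tumors with muscle RNA.

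Over all genes, heterozygous calls were 890, and 2614 with no filter, 2802 in DESeq2, 1394 with only the mice compared, 1 without the tumors with muscle RNA and 16 to 1087 with 1 tumor left out. Homozygous calls were 2917, and 4575, 4577, 980, 788 and 532 to 2442 in the same order. Calls of the difference were 5579, with 1450 without the tumors with muscle RNA and 2079 to 4817 with 1 tumor left out. Control calls were 2787, with 4484 in DESeq2, 1534 with only the mice compared, 91 without the tumors with muscle RNA and 205 to 3164 with 1 tumor left out. No paired analysis was possible because the mice compared share fewer than 2 tumor numbers. Each genotype is 1 mouse, and depth limits what can be said of scarce transcripts such as Ifng, read 0 times in G174.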
